A study of Mus musculus with 12 samples.

Results

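Interferons are secreted proteins that switch on defense against viruses and intracellular bacteria, and the colon uses them in mucosal immunity. Type I interferons act through ISGF3, a complex that contains STAT2 and IRF9 and binds a DNA element called the ISRE (interferon-stimulated response element). Interferon gamma acts through STAT dimers that bind another element, GAS. The induced genes encode GTPases, RNA-binding proteins and membrane proteins that block pathogens inside cells, while other STATs carry the signals of interleukins and growth hormone.

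The interferon-regulated and STAT genes were taken by their symbols, as probes with exactly 1 gene symbol in the families Irf, Ifit, Ifitm, Ifi, Ifih, Isg, Mx, Gbp, Stat and Oas. The rule found 72 probes for 68 genes, of 28853 probes on the array (21789 with 1 symbol), and all 72 had values on all 12 arrays. They were 8 guanylate-binding protein (GBP) probes, 9 of the Ifi200 family, 10 IFITM, 5 IFIT, 11 OAS, 2 Mx, 9 interferon regulatory factor (IRF) and 6 STAT probes, and 12 others. The symbols also caught Irf2bp1, Irf2bp2 and Irf2bpl, which are not themselves interferon regulatory factors and whose names refer to binding IRF2. A symbol in these families does not by itself show that interferon induces the gene or that its protein acts against viruses. Another 6 probes that carry several symbols, with such a gene among them, were not used.

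Each group had 3 mice, and the colon RNA of each mouse went on its own Affymetrix MoGene 1.0 ST array. The groups were TSP-1-/- mice given AOM/DSS, WT mice given AOM/DSS, TSP-1-/- mice on water and WT mice on water, all of the C57BL/6 strain. TSP-1 (gene Thbs1) is a matrix glycoprotein that inhibits angiogenesis, and the mutation is present in all cells. The AOM/DSS mice were males that received 10 mg/kg of the carcinogen azoxymethane (AOM) and, from 7 weeks of age, 4 cycles of 1.5% dextran sodium sulfate (DSS), which injures the colonic epithelium, and were killed 15 weeks after AOM. The labels call each sample colon, while the study's text speaks of normal and diseased tissue and of tumors, and the share of tumor in each treated sample was not analysed here. The water samples are labelled with the protocol of a previous DSS experiment, so the sex and age of those mice, and whether they were housed with the treated mice, were not taken as known.

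All values are log2 signals relative to a baseline of each probe, so that 1 unit is a 2-fold difference and 0 is the baseline. Levels of different probes therefore cannot be compared, and whether a gene was expressed at all cannot be read from them. A probe was called when limma gave a Benjamini-Hochberg adjusted p under 0.05 over 28815 probes and the genotypes differed by at least 2-fold. The Thbs1 probe does not check the labels, since the targeted gene keeps most of its sequence: its values were 0.81, 0.85 and 0.93 on the TSP-1-/- AOM/DSS arrays and 0.27, -0.16 and -0.07 on the WT AOM/DSS arrays (difference 0.85, limma adjusted p = 0.0729). The treated mice are those given AOM/DSS. One of their arrays stood apart. Replicate 3 of the treated TSP-1-/- mice had an SD of 0.751 over all probes, against 0.293 to 0.453 on the other 11 arrays, and the median of its pancreatic enzyme probes was 6.01, where the other treated TSP-1-/- arrays had 0.01 and 0.02 and the treated WT arrays -0.22 to -0.11. Members that passed the adjusted p only with this array are given with and without it.

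The promoters of these genes were searched for the letters of the ISRE and of GAS. RefSeq promoters (GRCm38.p6, 250 bases before to 50 after a start) were found for 55 of the 68 genes, with 69 starts. The ISRE was searched as GAAANNGAAA on both strands, where matches may overlap. It occurred in 24 of the 69 promoters (34.8%), against 1131 of 32851 promoters in the genome (3.44%). GAS, searched as TTCNNNGAA, which reads the same on both strands, was in 13 of them (18.8%), against 2726 of all (8.30%). A match describes the letters in the window only.

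The GBP genes of chromosome 3 with a probe here are shown first, because each of the 4 has the ISRE letters, in capitals, in a promoter window. Each line gives 40 bases of the gene's own strand, 5′ to 3′.
Gbp2b, chr3:142594695-142594734, plus strand: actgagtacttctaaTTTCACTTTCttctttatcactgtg
Gbp3, chr3:142559984-142560023, plus strand: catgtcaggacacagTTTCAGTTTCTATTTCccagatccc
Gbp5, chr3:142496754-142496793, plus strand: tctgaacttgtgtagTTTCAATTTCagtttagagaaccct
Gbp7, chr3:142530268-142530307, plus strand: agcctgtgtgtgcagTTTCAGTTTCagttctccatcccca

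The Ifi200 genes of chromosome 1 are shown because 7 of the 9 hold the ISRE letters, again in capitals, in a promoter window. No match was found in the windows of Ifi202b and Ifi209.
Ifi203, chr1:173942503-173942542, minus strand: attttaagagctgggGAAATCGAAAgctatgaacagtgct
Ifi205, chr1:174031865-174031904, minus strand: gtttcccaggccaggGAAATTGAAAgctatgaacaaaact
Ifi206, chr1:173491334-173491373, minus strand: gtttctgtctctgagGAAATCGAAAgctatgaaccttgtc
Ifi207, chr1:173741826-173741865, minus strand: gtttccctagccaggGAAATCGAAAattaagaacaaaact
Ifi208, chr1:173673592-173673631, plus strand: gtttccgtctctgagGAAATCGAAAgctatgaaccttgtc
Ifi213, chr1:173599321-173599360, minus strand: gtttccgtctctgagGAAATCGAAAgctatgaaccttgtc
Ifi214, chr1:173536012-173536051, minus strand: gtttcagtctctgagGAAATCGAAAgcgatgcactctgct

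The 40 bases of Ifi208 and Ifi213 are identical. Genes this alike can also share probe sequence, so a signal assigned to one member of the Ifi200, GBP, OAS or IFITM families may come in part from another.

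Treated TSP-1-/- colons had higher levels than treated WT colons for single GBP, IFITM, IFIT, IRF and STAT transcripts. Of the 72 probes, 8 rose (11.1%, against 1.74% of all probes) and 1 fell (1.39%, against 1.05% of all probes). The probes that rose belong to Gbp9, Gbp4, Gbp3, Ifit2, Ifitm1 (both its probes), Irf4 and Stat4, and the one that fell is Ifit1bl2. The median difference over the 72 probes was 0.40, against 0.13 over all probes, and 55 of the 72 were positive, against 62.8% of all probes. With no minimum fold, 14 probes passed upward (19.4%, against 5.39%) and 1 downward (1.39%, against 2.93%). The 3 TSP-1-/- arrays lay above the 3 WT arrays for 27 probes (37.5%, against 20.2%) and below them for 4 (5.56%, against 10.7%). The count of 8 that rose was 2 without treated TSP-1-/- replicate 3, 2 after a second quantile normalization, and 0 when the fit held only the 6 AOM/DSS arrays. Of the 14 probes that passed upward with no minimum fold, 2 still passed without treated TSP-1-/- replicate 3, those of Gbp9 and Stat4.

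**Figure D1:**
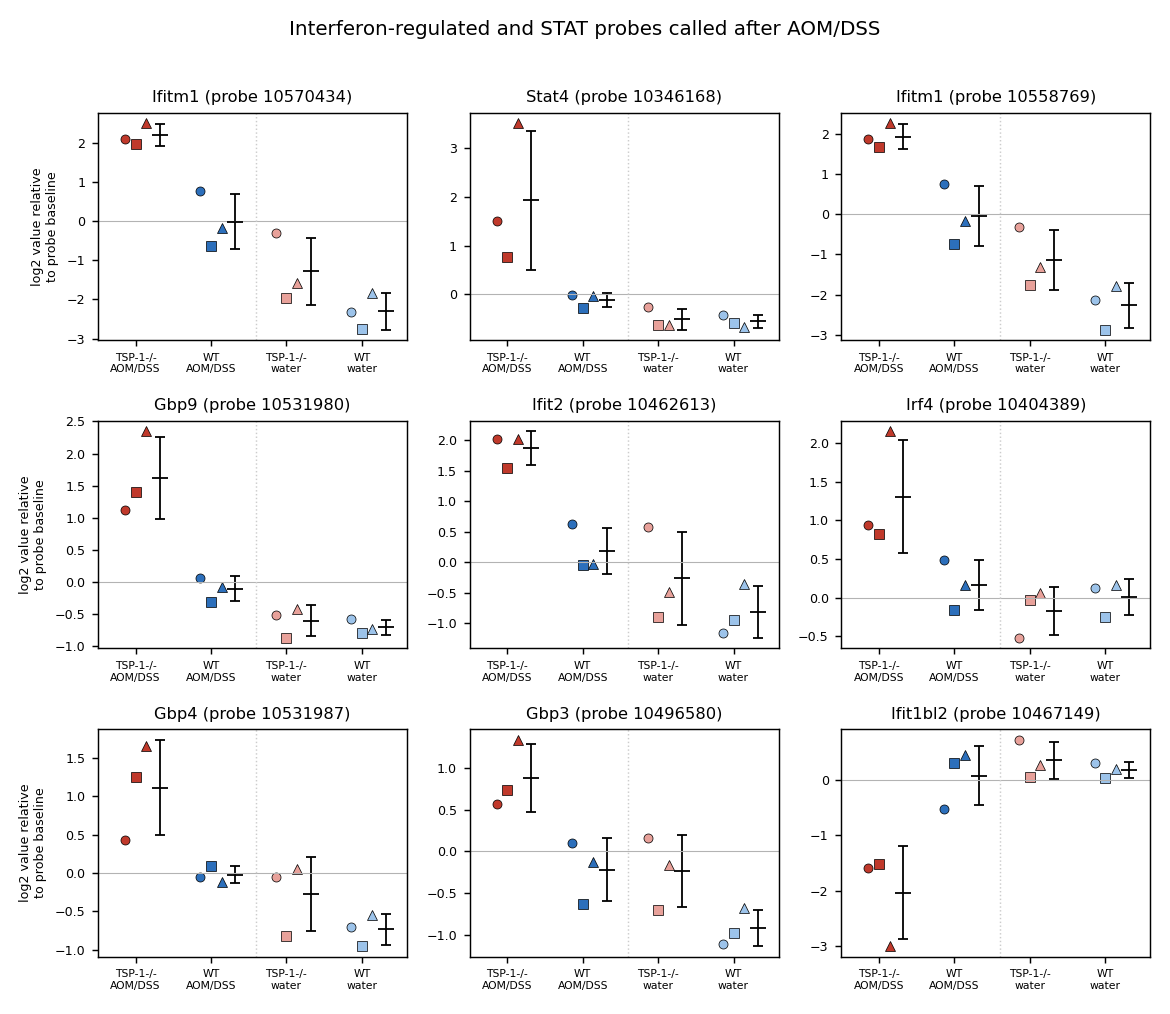
Log2 values relative to each probe's baseline (y axes differ) for the 9 called probes on each of the 12 arrays, with TSP-1-/- in red and WT in blue, AOM/DSS left of the dotted line and water right of it. Circles, squares and triangles are replicates 1, 2 and 3, and bars give the mean ± SD. After AOM/DSS the TSP-1-/- arrays lie above all WT arrays in 8 panels and below them in the panel of Ifit1bl2.

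**Figure D2:**
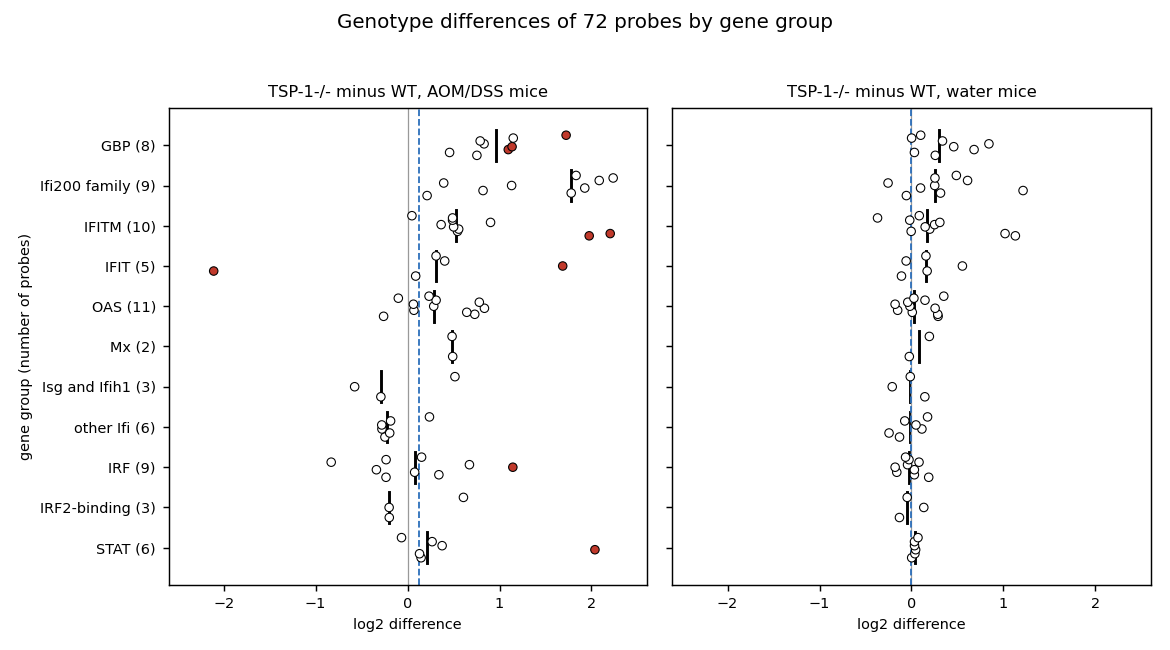
TSP-1-/- minus WT log2 differences of the 72 probes by gene group, after AOM/DSS (left) and on water (right). Filled points are called probes, black bars are group medians and the dashed line is the median of all probes. After AOM/DSS all 8 GBP, all 9 Ifi200 and all 10 IFITM probes lie right of 0, against 62.8% of all probes. On water no point is filled.

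GBPs are GTPases, induced mainly by interferon gamma, that coat and break the vacuoles of intracellular pathogens. All 8 GBP probes had positive differences after AOM/DSS, from 0.46 to 1.72 with a median of 0.96, against 62.8% of all probes. Of the 8, 3 rose, against 1.74% of all probes. For 7 of the 8 probes, against 20.2% of all probes, the TSP-1-/- arrays lay above every WT array, Gbp2b being the exception. Gbp9 had 1.12, 1.41 and 2.34 on the TSP-1-/- AOM/DSS arrays, against 0.07, -0.30 and -0.07 on the WT AOM/DSS arrays. The genotypes were clearly apart, with all TSP-1-/- values more than 1 unit above all WT values. Gbp9 rose by 1.72 ± 0.26 (SE), or 3.30-fold (limma adjusted p = 0.00983), and was called whichever of the 12 arrays was left out.

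Gbp4 had 0.43, 1.25 and 1.65 on the TSP-1-/- AOM/DSS arrays, against -0.05, 0.10 and -0.12 on the WT arrays. Its lowest TSP-1-/- value came near the WT range but did not overlap it. Gbp4 rose by 1.14 ± 0.29 (2.20-fold, limma adjusted p = 0.0395). The call was lost in 9 of 12 fits with 1 array left out, all but those without treated TSP-1-/- replicate 1 or TSP-1-/- water replicates 2 or 3, and the adjusted p was 0.121 without treated TSP-1-/- replicate 3 and 0.130 without treated WT replicate 3.

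Gbp3 had 0.56, 0.74 and 1.33 on the TSP-1-/- AOM/DSS arrays, against 0.10, -0.63 and -0.13 on the WT arrays, again without overlap. It rose by 1.10 ± 0.26 (2.14-fold, limma adjusted p = 0.0344). Leaving out treated TSP-1-/- replicate 3 gave an adjusted p of 0.106, treated WT replicates 2 or 3 one of 0.0713 or 0.102, and WT water replicates 1 or 2 one of 0.0516 or 0.0508. Gbp7 passed the adjusted p but not the fold minimum (0.79 ± 0.20, adjusted p = 0.0387, and 0.61, adjusted p = 0.119, without treated TSP-1-/- replicate 3). Gbp8 was past 2-fold and missed the adjusted p (1.15 ± 0.37, adjusted p = 0.0676), with TSP-1-/- values of 0.78, 0.51 and 2.05 and WT values of -0.18, -0.07 and 0.13. Without treated TSP-1-/- replicate 3 the Gbp8 difference was 0.68. The 4 genes on chromosome 5 (Gbp4, Gbp8, Gbp9 and Gbp11) had a median difference of 1.14 and the 4 on chromosome 3 one of 0.81. The chromosomes were not tested against each other, and no promoter of the chromosome 5 genes was among those used.

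IFITM proteins sit in membranes, and some of them block the entry of viruses. All 10 IFITM probes had positive differences after AOM/DSS (median 0.52), against 62.8% of all probes. Only 9 of 10 did when each array was centred on its median or when the arrays were quantile normalized again. Both Ifitm1 probes rose. The first (10570434) had 2.10, 1.96 and 2.50 on the TSP-1-/- AOM/DSS arrays, against 0.76, -0.63 and -0.18 on the WT arrays. The TSP-1-/- arrays were close together and the WT arrays spread over more than 1 unit, with WT replicate 1 the highest. The difference was 2.20 ± 0.43 (4.61-fold, limma adjusted p = 0.0199), and 1.98 ± 0.42 (3.93-fold, adjusted p = 0.0266) for the second probe (10558769). The adjusted p of the first was 0.0630 without treated TSP-1-/- replicate 3 and 0.0804 without treated WT replicate 3. That of the second was 0.0783 and 0.0948 without these arrays and 0.0560 without treated WT replicate 2.

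The Ifitm1 promoter is printed because the probes of this gene had the largest called rise of the family and its 300 bases hold neither motif. It lies at chr7:140967826-140968125 on the plus strand (GRCm38.p6).
Ifitm1 promoter: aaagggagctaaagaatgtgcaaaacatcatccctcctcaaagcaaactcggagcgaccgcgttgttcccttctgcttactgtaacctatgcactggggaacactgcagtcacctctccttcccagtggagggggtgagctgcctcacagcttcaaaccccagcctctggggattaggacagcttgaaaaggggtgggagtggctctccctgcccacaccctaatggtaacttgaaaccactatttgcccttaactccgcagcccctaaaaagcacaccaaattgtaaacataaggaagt

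Ifitm3, which restricts influenza virus, lies on the same stretch of chromosome 7. Its TSP-1-/- AOM/DSS values were 0.52, 0.53 and 0.62, against 0.07, -0.61 and -0.49 on the WT arrays. The difference of 0.90 ± 0.22 passed the adjusted p (0.0348) but not the 2-fold minimum, which it reached without treated WT replicate 1 (1.11, adjusted p = 0.0115). Without treated TSP-1-/- replicate 3 the adjusted p of Ifitm3 was 0.0951. Of the 3 Ifitm2 probes, 2 passed the adjusted p with differences of 0.56 ± 0.14 (adjusted p = 0.0398) and 0.50 ± 0.13 (adjusted p = 0.0384), and the other gave 0.36 ± 0.14 (adjusted p = 0.107). The first 2 had adjusted p-values of 0.0867 and 0.104 without treated TSP-1-/- replicate 3. Ifitm7, the only IFITM gene here on chromosome 16, had a difference of 0.05 ± 0.13.

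IFIT proteins bind viral RNA and keep it from being translated, and the 5 IFIT probes, all on chromosome 19, did not move together. Ifit2 had 2.03, 1.55 and 2.03 on the TSP-1-/- AOM/DSS arrays, against 0.63, -0.05 and -0.02 on the WT arrays. The groups did not overlap, and Ifit2 rose by 1.69 ± 0.35 (3.22-fold, limma adjusted p = 0.0236). Its adjusted p was 0.0699 without treated TSP-1-/- replicate 3, and 0.0524 and 0.0924 without treated WT replicates 2 and 3. Ifit3 and Ifit3b, whose 40-base ISRE windows are identical, gave 0.40 ± 0.33 and 0.31 ± 0.39, neither called. Their shared window is printed once, with the position of the Ifit3 copy.
Ifit3, chr19:34583358-34583397, plus strand: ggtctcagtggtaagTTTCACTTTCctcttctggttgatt

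Ifit1bl2, an Ifit1-like gene, was the only probe of the 72 that fell. It had -1.59, -1.51 and -3.00 on the TSP-1-/- AOM/DSS arrays, against -0.52, 0.30 and 0.46 on the WT arrays. All TSP-1-/- values were below all WT values, and Ifit1bl2 was lower by 4.31-fold (log2 difference -2.11 ± 0.37, limma adjusted p = 0.0165). Its adjusted p was 0.0689 without treated WT replicate 3, and it was called without any other single array. Ifit1 itself had 0.14, -0.31 and -0.23 on the TSP-1-/- AOM/DSS arrays, against -0.56, -0.10 and -0.01 on the WT arrays, with the groups mixed (0.09 ± 0.29, adjusted p = 0.852).

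The Ifit1 promoter is printed because the neighbouring genes share it. Ifit1 lies on the plus strand and Ifit1bl2 on the minus strand, and the promoter windows of Ifit1 (chr19:34640639-34640938) and of 1 of the 2 listed starts of Ifit1bl2 (chr19:34640694-34640993) have 245 bases in common. Both ISRE matches, in capitals, lie in the shared part, and the 2 genes differed in the genotype comparison as given above.
Ifit1 promoter: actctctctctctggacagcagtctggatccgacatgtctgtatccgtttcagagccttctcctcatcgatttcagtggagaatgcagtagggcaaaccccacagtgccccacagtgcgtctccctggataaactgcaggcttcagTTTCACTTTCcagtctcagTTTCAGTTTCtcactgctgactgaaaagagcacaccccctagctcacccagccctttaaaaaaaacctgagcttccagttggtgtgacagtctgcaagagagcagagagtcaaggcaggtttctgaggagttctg

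The Ifi200 genes encode proteins that sense or bind DNA, and lie in 1 cluster on chromosome 1. None of the 9 probes was called after AOM/DSS. All 9 differences were positive, against 62.8% of all probes, from 0.21 to 2.24 with a median of 1.78. Most of this size came from 1 array. The median of the 9 probes was 1.06, 0.02 and 3.07 on treated TSP-1-/- replicates 1, 2 and 3, against -0.57, 0.03 and -0.35 on the WT AOM/DSS arrays. Without TSP-1-/- replicate 3 the median difference was 0.82, still with 9 of 9 positive and none called. Without TSP-1-/- replicate 2, 6 of the 9 were called higher, against 3.09% of all probes in that fit. It kept replicate 3, the array that stood apart.

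Ifi213 had 0.45, 0.35 and 4.08 on the TSP-1-/- AOM/DSS arrays, against -0.88, -0.14 and -0.81 on the WT arrays. The groups did not overlap, but replicate 3 stood more than 3 units above the other TSP-1-/- arrays (2.24 ± 0.75, adjusted p = 0.0741, and 1.01, adjusted p = 0.0903, without that array). Ifi209 had 1.64, -0.40 and 3.85 on the TSP-1-/- arrays and -0.97, 0.05 and -0.24 on the WT arrays, with overlap (2.08 ± 0.78, adjusted p = 0.0955, and 1.01 without replicate 3). Ifi206 had 1.56, -0.34 and 3.95 on the TSP-1-/- arrays and -0.77, 0.11 and 0.04 on the WT arrays, also with overlap (1.93 ± 0.76, adjusted p = 0.109, and 0.82 without replicate 3). The TSP-1-/- mice were thus unlike each other for these genes, replicate 2 lying within the WT range for Ifi209 and Ifi206. Ifi202b behaved otherwise, with -0.35, -0.71 and -0.50 on the TSP-1-/- arrays and -0.75, -0.79 and -0.66 on the WT arrays (0.21 ± 0.13).

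**Figure D3:**
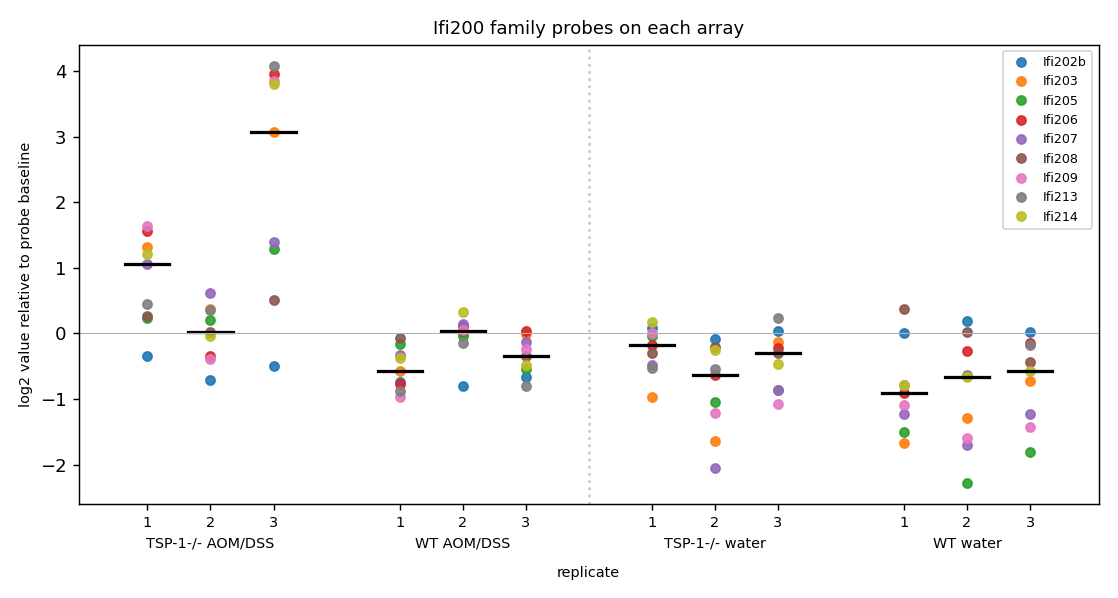
Log2 values relative to each probe's baseline for the 9 Ifi200 family probes on each array (x axis: replicates within the 4 groups), with black bars at the median. The median is 3.07 on treated TSP-1-/- replicate 3, against 1.06 and 0.02 on the other TSP-1-/- AOM/DSS arrays.

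Some, but not all, OAS proteins make the short adenylate chains that activate RNase L. Mx proteins are GTPases that trap viral nucleocapsids (Mx1 is disrupted in most inbred strains). None of the 11 OAS probes was called. Of their differences 9 of 11 were positive, against 62.8% of all probes, and the median was 0.28. Only Oas1e passed the adjusted p, with 0.17, 0.33 and 0.06 on the TSP-1-/- AOM/DSS arrays and -0.55, -0.95 and -0.45 on the WT arrays (0.84 ± 0.18, adjusted p = 0.0266, and 0.0569 without treated TSP-1-/- replicate 3). It was the only OAS probe whose groups did not overlap. Oas2 gave 0.78 ± 0.31 (adjusted p = 0.115) and Oas1b 0.73 ± 0.37 (adjusted p = 0.187). Mx1 and Mx2 gave 0.49 ± 0.17 (adjusted p = 0.0741) and 0.48 ± 0.33 (adjusted p = 0.315).

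The remaining Isg, Ifih and Ifi genes were mostly at or under the WT level, and none was called. Ifih1, a sensor of double-stranded RNA also known as MDA5, had a difference of -0.29 ± 0.21. Isg20, an exonuclease that degrades RNA, had -0.11, -0.01 and -0.82 on the TSP-1-/- AOM/DSS arrays, against 0.29, 0.01 and 0.48 on the WT arrays (-0.58 ± 0.23, adjusted p = 0.115). Isg20l2, which carries a similar name, gave 0.52 ± 0.20 (adjusted p = 0.105). Of the 6 other Ifi probes only Ifi44l was positive (0.24 ± 0.14). Ifi30, a lysosomal thiol reductase of antigen processing, gave -0.28 ± 0.25, with Ifi27l2b at -0.28 ± 0.26 and Ifi27 at -0.25 ± 0.18.

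The IRFs are the transcription factors that switch on interferon genes and their targets, or direct the fate of immune cells. Of the 9 IRF probes 1 rose and none fell, against 1.74% and 1.05% of all probes. Irf4, which acts in plasma cells and activated T cells, had 0.95, 0.83 and 2.15 on the TSP-1-/- AOM/DSS arrays, against 0.49, -0.16 and 0.17 on the WT arrays. The groups did not overlap, and TSP-1-/- replicate 3 was the highest array (1.14 ± 0.31, 2.21-fold, limma adjusted p = 0.0464). This call was weak. It was kept in only 2 of 12 fits with 1 array left out, those without treated TSP-1-/- replicate 2 or treated WT replicate 1, and the difference was 0.72 (adjusted p = 0.112) without treated TSP-1-/- replicate 3 and 1.15 (adjusted p = 0.135) without treated WT replicate 3. It was also lost when each array was centred on its median (adjusted p = 0.0517).

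Irf5, which acts downstream of Toll-like receptors in macrophages, passed the adjusted p but not 2-fold. It had 0.24, 0.11 and 0.65 on the TSP-1-/- AOM/DSS arrays, against -0.44, -0.05 and -0.53 on the WT arrays (0.67 ± 0.17, adjusted p = 0.0370, and 0.110 without treated TSP-1-/- replicate 3). Irf7, which amplifies type I interferon production, ran the other way, with -0.59, -1.31 and -1.27 on the TSP-1-/- AOM/DSS arrays and -0.68, -0.30 and 0.30 on the WT arrays. The groups overlapped through TSP-1-/- replicate 1 and WT replicate 1, and the difference of -0.83 ± 0.28 missed the threshold (adjusted p = 0.0716). It passed without treated WT replicate 1 (-1.06, adjusted p = 0.0377).

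Irf3, which starts type I interferon transcription, gave -0.34 ± 0.15 (adjusted p = 0.148). Irf8, a factor of myeloid cells and B cells, gave -0.23 ± 0.17 (adjusted p = 0.354), Irf2 gave 0.08 ± 0.13 and Irf9 0.15 ± 0.26. The sign for Irf2 turned to -0.03 and -0.04 when the arrays were quantile normalized again, over all 12 arrays or within each set of 6. The probes of Irf1, a factor induced by interferon gamma, disagreed (0.34 ± 0.16 and -0.23 ± 0.17, neither called).

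Of the 6 STAT probes 1 rose and none fell, against 1.74% and 1.05% of all probes. Stat4, which carries interleukin 12 signals in T and NK cells, had 1.50, 0.77 and 3.51 on the TSP-1-/- AOM/DSS arrays, against -0.02, -0.28 and -0.03 on the WT arrays. The WT arrays were alike, and the TSP-1-/- arrays were all above them but spread over more than 2 units. Stat4 rose by 2.04 ± 0.49 (4.11-fold, limma adjusted p = 0.0347), and without treated TSP-1-/- replicate 3 the difference was 1.25 (adjusted p = 0.0259). Its adjusted p was 0.0661 and 0.108 without treated WT replicates 2 and 3, and 0.0501 to 0.0537 without WT water replicates 1, 2 or 3 or TSP-1-/- water replicate 2.

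The promoter of the inner of the 2 starts listed for Stat4 is printed because it alone of them holds the ISRE letters, in capitals. It lies at chr1:52007990-52008289 on the plus strand (GRCm38.p6).
Stat4 promoter: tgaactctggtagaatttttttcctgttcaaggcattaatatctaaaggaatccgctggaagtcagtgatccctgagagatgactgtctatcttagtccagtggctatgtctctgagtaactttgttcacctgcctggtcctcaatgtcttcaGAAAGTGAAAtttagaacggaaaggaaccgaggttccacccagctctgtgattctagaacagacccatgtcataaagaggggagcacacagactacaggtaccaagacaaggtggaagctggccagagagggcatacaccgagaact

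The other 5 STATs were near the WT level. Stat5a, used by interleukin 2 and growth hormone, gave 0.38 ± 0.15 (adjusted p = 0.105) and its neighbour Stat5b 0.27 ± 0.24. Stat2, the partner of IRF9 in ISGF3, gave 0.15 ± 0.20, and Stat3, which carries interleukin 6 and interleukin 10 signals, 0.13 ± 0.15. Stat6, which carries interleukin 4 signals, gave -0.07 ± 0.16.

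**Figure D4:**
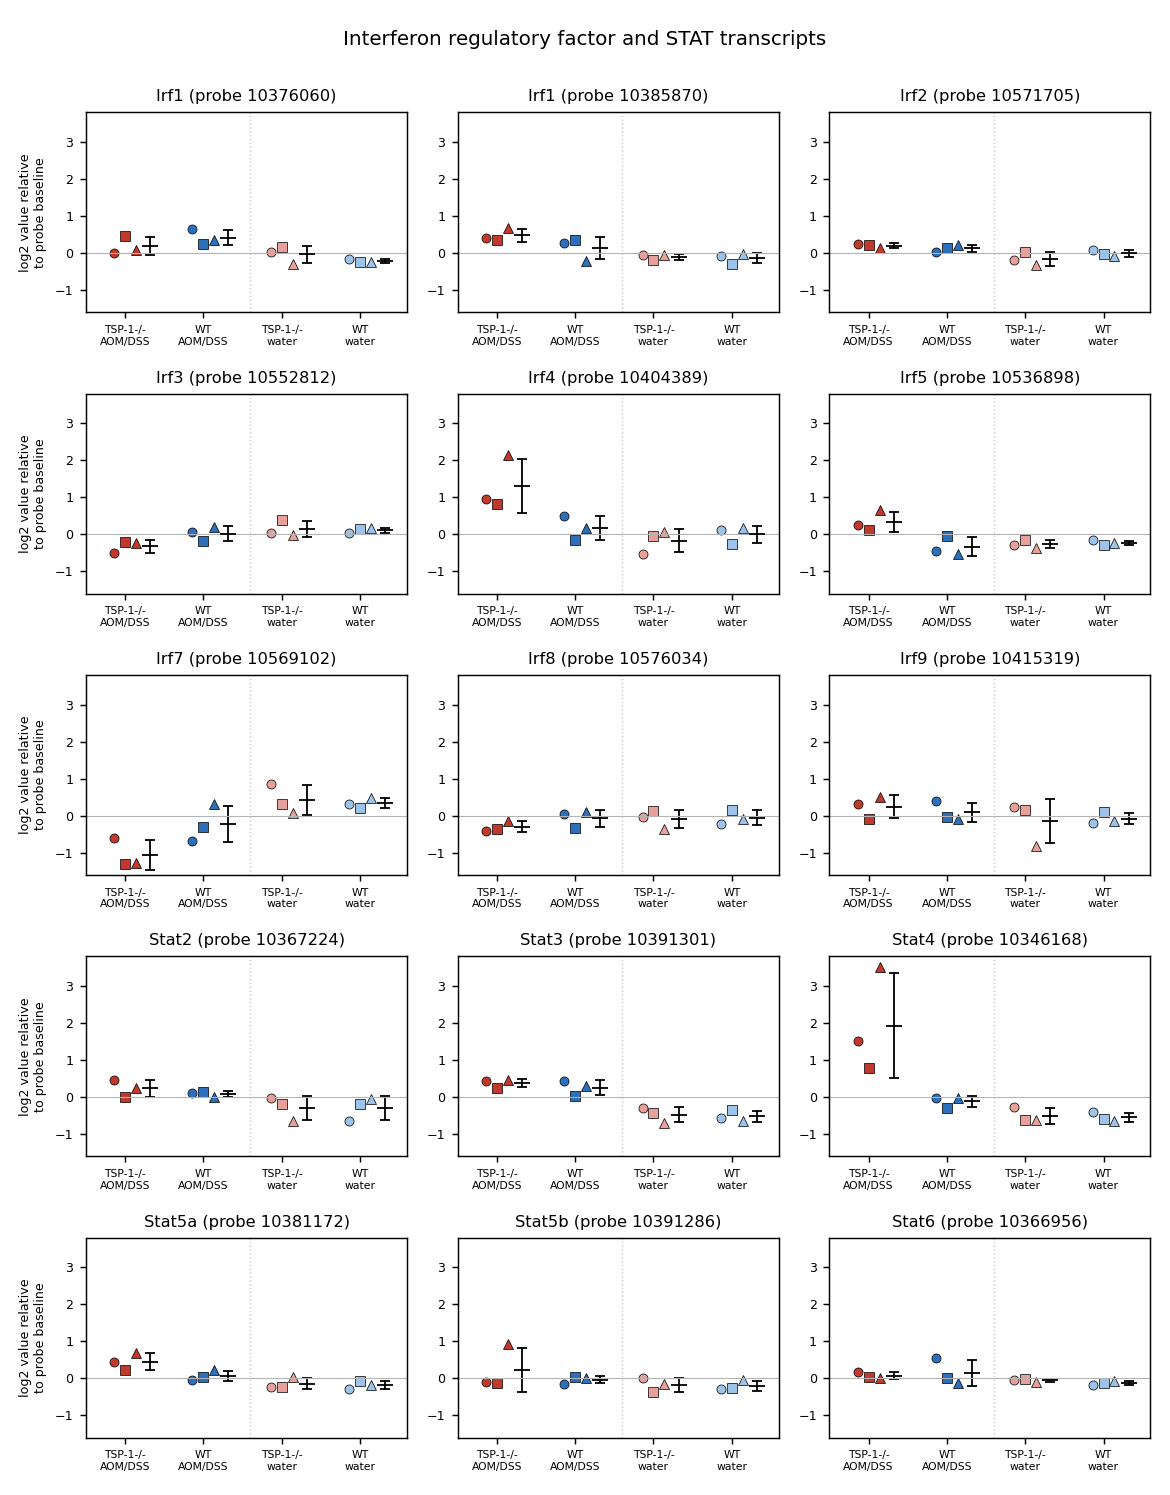
Log2 values relative to each probe's baseline for the 9 IRF and 6 STAT probes on each of the 12 arrays, all on 1 scale, with TSP-1-/- in red and WT in blue and the mean ± SD as bars. Irf4 and Stat4 are the called probes. Irf7 has a lower mean on the TSP-1-/- AOM/DSS arrays (-0.59, -1.31 and -1.27) than on the WT AOM/DSS arrays (-0.68, -0.30 and 0.30). Its groups overlap, and it does not pass the test.

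Genes with and without the ISRE letters both held called members. Among probes of genes with a promoter, the 26 with an ISRE had a median difference after AOM/DSS of 0.53, with 2 called higher and 1 lower, and the 33 without had a median of 0.23, with 4 called higher. With GAS the medians ran the other way, 0.14 for the 14 probes with it and 0.39 for the 45 without. These medians were not tested against each other.

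On water no probe of the 72 was called (0%, against 0% of all probes), and at an unadjusted p under 0.05 there were 4 (5.56%, against 0.999% of all probes), all higher in TSP-1-/- colons. They were the 2 Ifitm1 probes, Gbp3 and Ifi205, each with an adjusted p of 1.00. The median difference was 0.06, against -0.00 over all probes.

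Ifi205 had -0.03, -1.04 and -0.86 on the TSP-1-/- water arrays, against -1.50, -2.28 and -1.80 on the WT water arrays, with no overlap (1.21 ± 0.33, unadjusted p = 0.00323). Ifitm1 (10558769) had -0.32, -1.77 and -1.31 on the TSP-1-/- water arrays, against -2.14, -2.87 and -1.79 on the WT water arrays (1.13 ± 0.42, unadjusted p = 0.0205). Gbp3 had 0.16, -0.70 and -0.16 on the TSP-1-/- water arrays and -1.10, -0.97 and -0.67 on the WT water arrays (0.68 ± 0.26, unadjusted p = 0.0243). TSP-1-/- water replicate 1 was the highest of the 6 water arrays for all 3 genes. The TSP-1-/- water arrays lay above all WT water arrays for 4 of the 72 probes (5.56%, against 2.29% of all probes) and below them for 0 (against 2.88%).

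All 8 GBP differences were positive on water too, against 49.4% of all probes, with a median of 0.30. The median of the STAT probes was 0.04. Gbp5 gave 0.84 ± 0.47, Ifit2 0.55 ± 0.35, Ifitm6 -0.37 ± 0.68 and Oasl2 0.35 ± 0.34. TSP-1-/- water replicate 1 also stood apart in the neutrophil markers, with a median of 0.49 over 7 probes, against -2.84 and -1.74 on the other TSP-1-/- water arrays and -2.83 to -2.42 on the WT water arrays, and Ifitm6 went with it (1.04, -2.49 and -2.11 on the TSP-1-/- water arrays, -0.76, -0.36 and -1.33 on the WT water arrays). The pancreatic enzyme probes of TSP-1-/- water replicate 1 were also higher, with a median of 1.15. The other TSP-1-/- water arrays had -0.03 and 0.07, and the WT water arrays -0.17 to 0.04. The part of this replicate in the water differences was not tested.

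Whether the genotype difference itself differed between treated and water mice was tested as the difference of the 2 differences. No probe of the 72 was called (0 of 72, against 0.00694% of all probes), and 12 had an unadjusted p under 0.05 (16.7%, against 15.4%). The smallest p-values were those of Gbp9 (1.62 ± 0.37, unadjusted p = 0.000867) and Ifit1bl2 (-2.28 ± 0.52, unadjusted p = 0.000897), both with an adjusted p of 0.183. For Stat4 the value was 1.99 ± 0.70 (adjusted p = 0.254) and for Irf4 1.32 ± 0.44 (adjusted p = 0.251). A call after AOM/DSS and none on water therefore does not show that the genotype difference depended on treatment for these genes.

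The pathway around these genes was read from a list of 72 other genes, of which 65 were measured with 86 probes. After AOM/DSS 4 of the 86 rose, against 1.74% of all probes, and 0 fell, against 1.05%. Both of Nlrc5's called probes are among the 4. The differences of 63 of the 86 probes were positive, against 62.8% of all probes. The median was 0.33, against 0.13 over all probes, and on water 0 were called. Nlrc5 alone supplied most of the 31 probes of the interferon gamma effectors, 29 of which were positive. These counts and the median therefore weigh that gene many times and are not counts of genes. Among the 8 ligand probes only Ifnz, a type I interferon of mice, rose, with 1.41, 0.80 and 1.43 on the TSP-1-/- AOM/DSS arrays and 0.17, -0.02 and 0.02 on the WT arrays (1.15 ± 0.19, limma adjusted p = 0.0156, and 0.0607 without treated WT replicate 3). Ifng and Ifnb1, which encode interferon gamma and interferon beta, were not called (0.46 ± 0.23 and -0.32 ± 0.14). None of the 6 receptor, 3 kinase or 10 inhibitor probes was called. The nearest were Ifnar2, a chain of the type I receptor (0.82 ± 0.23), and Usp18, which dampens that receptor (1.07 ± 0.32, adjusted p = 0.0548).

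Of 9 sensors and adaptors, Sting1, the adaptor for cyclic dinucleotides, rose, with 1.56, 1.98 and 2.45 on the TSP-1-/- AOM/DSS arrays and 0.80, -0.54 and -0.28 on the WT arrays (4-fold, with an SE of 0.37 on the log2 scale, adjusted p = 0.0183). Its adjusted p was 0.0568 without treated TSP-1-/- replicate 3 and 0.0734 without treated WT replicate 3. None of the 19 other induced effector probes was called. Trim30a gave 1.39 ± 0.42 (adjusted p = 0.0572), and Rsad2, an enzyme that blocks viral replication, gave 0.15 ± 0.25. Among the interferon gamma effectors, 2 of 19 probes of Nlrc5, which activates MHC class I genes, rose (1.46 and 1.29), while the other 17 did not, so the gene is not counted as changed. Neither probe was called without treated TSP-1-/- replicate 3 (adjusted p = 0.106 and 0.0928). Ciita, its class II counterpart, gave 1.56 ± 0.46 (adjusted p = 0.0535), and the chemokines Cxcl10 and Cxcl9 gave 1.45 ± 0.48 and 1.40 ± 0.74, none of them called. Psmb10, a subunit of the immunoproteasome, gave -0.79 ± 0.23 (adjusted p = 0.0518).

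Whole colon RNA mixes cell types, and fewer cells of a type cannot be told apart from less RNA per cell. Many of these genes are expressed in leukocytes, whose markers also differed between the treated genotypes. Over all probes, for comparison with each marker list below, 62.8% of differences were positive, 1.74% of probes rose and 1.05% fell. How the calls of marker genes fared with an array left out is not given here. All 7 neutrophil probes had positive differences and 3 rose (Csf3r, Cxcr2 and Mmp9, limma adjusted p = 0.0169, 0.0183 and 0.0235). The median of the neutrophil probes was 1.83, 2.15 and 2.98 on the TSP-1-/- AOM/DSS arrays, against 0.20, -0.55 and -0.46 on the WT arrays. All 7 macrophage and monocyte probes were positive and 3 rose (Ccr2, Csf1r and Lyz2). The limma adjusted p of Ccr2 and Csf1r was close to the threshold (0.0461 and 0.0491), and that of Lyz2 was 0.0234. The list median was 0.66, 0.57 and 1.54 on the TSP-1-/- arrays and 0.02, -0.36 and -0.09 on the WT arrays. The medians of both lists were thus higher on every TSP-1-/- AOM/DSS array than on any WT AOM/DSS array, although the genotypes overlapped for Ngp and Cd14. All 8 called-higher probes of the 72 lay this way too. So did 27 of the 72 (37.5%) and 20.2% of all probes, so the pattern is common on these arrays.

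Of 6 B and plasma cell probes 2 rose, Cd79a and Cd79b, both close to the threshold (limma adjusted p = 0.0449 and 0.0458). The genotypes overlapped for Cd79a. The list median was 1.61, 0.40 and 3.18 on the TSP-1-/- AOM/DSS arrays and 0.43, -0.16 and 0.02 on the WT arrays. None of 10 T and NK cell probes was called, and their median was -0.04, -0.10 and 2.20 on the TSP-1-/- arrays and -0.24, 0.41 and 0.66 on the WT arrays. For the medians of the lymphocyte lists, Stat4, Irf4 and the Ifi200 genes except Ifi202b, treated TSP-1-/- replicate 3 was the highest array. Replicate 2 was the lowest of the treated TSP-1-/- arrays for them. This order was not particular to lymphocyte genes. The medians of the macrophage and monocyte list and of the plasmacytoid dendritic cell list (0.47, 0.34 and 1.37) had it too. So did the median of all 72 probes (0.32, 0.18 and 0.43). Of 5 plasmacytoid dendritic cell markers, a list that shares Irf8 with the genes described here, only Tcf4 rose. Of 13 colon epithelium genes 12 had negative differences and Car1 fell (limma adjusted p = 0.0444). The list median was -0.07, -0.06 and -1.23 on the TSP-1-/- AOM/DSS arrays and 0.19, 0.01 and 0.18 on the WT arrays. Genes that mark position along the gut split the WT arrays. Hoxb13, a gene of the distal colon, had 0.78, -0.06 and 0.06 on the TSP-1-/- AOM/DSS arrays, against 0.43, -6.33 and -5.89 on the WT AOM/DSS arrays. Hoxb7, a gene of more anterior gut, had -2.37, -2.18 and -3.05 on the TSP-1-/- AOM/DSS arrays, against -2.45, 0.45 and 0.57 on the WT AOM/DSS arrays. WT replicate 1 thus stood with the TSP-1-/- arrays, and WT replicates 2 and 3 stood apart from them. On water replicate 3 of either genotype stood apart in Hoxb13, with 1.70, 2.17 and -4.24 on the TSP-1-/- water arrays and 2.48, 1.52 and -3.68 on the WT water arrays. The part of cell composition, of pancreatic RNA and of the site sampled in the differences of the interferon-regulated genes was not tested.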

How the data were processed

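The deposited values are log2 signals that the authors made from Affymetrix MoGene 1.0 ST arrays with PLIER16 and quantile normalization, set relative to the median of all 12 samples. In the deposited values only 4.18% of probes have a 12-array median within 0.001 of 0, so these 12 columns do not follow that baseline. Relative values hold no absolute signal or depth, and 3 arrays per group limit the precision. The labels call the arrays of a group biological replicates.

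Values were used as deposited. limma (lmFit, eBayes) was fitted to all 12 arrays with 1 mean per group on the 28815 probes with complete values, following the study's analysis of variance, Benjamini-Hochberg adjustment and 2-fold filter. Its filter on low signal could not be applied to relative values. Standard errors are those of limma. AOM/DSS minus water was not fitted, and a planned test of the AOM/DSS arrays against the 12-array median was dropped, because of the baseline. Alternatives were array centring, quantile normalization again, only the 6 arrays of a comparison, a replicate block, no minimum fold, a variability filter (SD under 0.4), robust eBayes, and leaving out each array. Leaving out treated TSP-1-/- replicate 3 and treated WT replicate 1 together was added after the values were seen. The method was tested on simulated data.

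The members, gene lists, naming rule and tests were chosen with earlier results of these data known. Named genes are Thbs1, all called members and those with an adjusted p under 0.05, all IRF and STAT members, the 3 largest differences of each other family, and the called or largest genes of the pathway list. Symbols come from the platform annotation. RefSeq promoters are of GRCm38.p6. The scripts ran under Python 3.11.15 with numpy 2.4.6, pandas 2.3.3 and scipy 1.17.1, and under R 4.3.3 with limma 3.58.1.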

Additional observations from a re-analysis of the deposited data

How the results depend on the processing

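The 8 probes called higher after AOM/DSS became 2 when the 12 arrays were quantile normalized again and 3 when this was done within each set of 6 arrays. They became 0 when only the 6 AOM/DSS arrays were fitted, and 14 with no minimum fold. With 1 array left out they ranged from 1 to 15: 15 without treated TSP-1-/- replicate 2, 2 without treated TSP-1-/- replicate 3 or treated WT replicate 2, 1 without treated WT replicate 3, and 4, 4 and 5 without WT water replicates 1, 2 and 3. Over all probes the counts higher and lower were 500 and 302, against 78 and 105 after quantile normalization of the 12 arrays and 5 and 1 with only the 6 AOM/DSS arrays. Without treated TSP-1-/- replicate 2 they were 889 and 514. Centring each array on its median gave 7 members higher, with 396 probes higher and 414 lower overall.

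The 1 probe called lower, Ifit1bl2, was lost with only the 6 arrays (0 lower), and with 1 array left out the count ran from 0 (without treated WT replicate 3) to 2 (without treated WT replicate 1, which added Irf7). Gbp9 kept its call in 20 of 21 settings and lost it with only the 6 arrays (adjusted p = 0.108). On water 0 members were called in every setting. The difference of the 2 differences had 0 to 1 members called with 1 array left out (1 without treated WT replicate 1), and 2 without treated TSP-1-/- replicate 3 and treated WT replicate 1 together, an alternative chosen after the values were seen, which left 7 higher and 1 lower after AOM/DSS. It could not be computed with only 6 arrays.

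The median member difference of 0.40 after AOM/DSS became 0.21 after quantile normalization of the 12 arrays and 0.23 within each set, and ran from 0.30 to 0.48 with 1 array left out. The median over all probes was then 0.02 in both quantile settings, against 0.13 as deposited and 0.05 after centring. The median on water ran from -0.02 to 0.14 with 1 array left out. The cause of these changes was not tested, except that fewer arrays leave fewer degrees of freedom. For single genes 2004 values kept their side of the threshold, 96 lost a call, 10 gained one, 8 moved by more than the replicate spread, and no called value changed sign.

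Same-numbered arrays did not deviate together after AOM/DSS (correlations of 0.03, -0.04 and -0.02). On water the correlations were 0.09, 0.28 and 0.40, but TSP-1-/- replicate 1 correlated best with WT replicate 2 (0.18). Nothing in the labels ties the numbers to shared litters or days, and they were not taken as pairs. With the number as a replicate block, 6 members were called higher and 1 lower, Gbp3 (adjusted p = 0.0517) and Irf4 (adjusted p = 0.0593) being lost.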
